A study of Sus scrofa with 64 samples.

Results

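Peroxisomes shorten very long-chain, branched and dicarboxylic fatty acids that mitochondria handle poorly, and the enterocyte, which takes up dietary fat, is rich in them. An acyl-CoA is carried through the membrane by ABC transporters and oxidised in a step that makes hydrogen peroxide. A bifunctional enzyme then hydrates and dehydrogenates it, and a thiolase cleaves it. The shortened chain leaves as a carnitine ester for the mitochondria, and catalase removes the peroxide. In rodents, ligands of the fatty acid receptor PPARA induce many of these genes and increase the number of peroxisomes.

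The genes described here are 9 members of this pathway, taken by symbol: PEX11A, PEX19, ABCD3, EHHADH, HSD17B4, ACAA1, DECR2, CROT and CAT. They were chosen with earlier results of these data known, so counts of members set beside all genes describe them and are not independent support. All 9 were paired with a gene ID, of 31908 IDs in the count files, and all 9 passed the filter on low counts that left 14062 genes. They were measured in mid-jejunal mucosal scrapings of 64 female piglets of the TN20 cross (Large White x Norwegian Landrace), 16 in each of 4 groups, with 1 library per pig. Fasted 6-week piglets had been moved at 4 weeks to a research facility, kept in pairs on a weaning diet for 2 weeks, and then left without feed for 48 h. Fed 6-week piglets were handled in the same way and kept their feed. Fasted 4-week piglets had been raised on sow's milk with no creep feed and spent 48 h in a pen away from the sow on the farm of origin. The fed piglets of 4 weeks were left with the sow there. All groups had free access to water. Age, weaning, diet and housing differ together between the ages, and at 4 weeks fasting goes with separation from the sow, so these cannot be told apart.

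Libraries held 18774144 to 21159989 gene counts. Levels are CPM, read counts relative to a library size scaled by a TMM factor (0.758 to 1.383), and a fold change is fasted over fed, or 6 weeks over 4 weeks, on the log2 scale. The members had 378 to 24429 reads per library. Of 12 absorptive enterocyte markers 9 had an ID, with none at 0. Their summed level was 28000 to 58800 CPM in fasted and 24900 to 46200 CPM in fed 6-week piglets, and 8540 to 56200 CPM in fasted and 28300 to 45100 CPM in fed 4-week piglets. The sum hides opposite changes. Fasted over fed at 4 weeks, 3 of 9 were called higher and 1 lower (−1.1 to 2.3), beside 33.9% and 29.4% of all genes. Between fed 6-week and fed 4-week piglets 4 were higher and 4 lower (−1.46 to 4.1), beside 31.9% and 32.3% of all genes. Of the liver markers, ALB, TF, SERPINA1 and TTR had a median under 1 CPM in every group; the sum of the 5 had medians of 22.2 CPM in fasted and 19.9 CPM in fed 6-week and 20.3 CPM in fasted and 26.3 CPM in fed 4-week piglets, and came mainly from the fifth, CYP2E1. In RNA from whole scrapings, fewer cells of a type and less RNA per cell cannot be told apart. Nothing in the labels gives litter, pen or sampling day. Each pig was treated as independent, though the 6-week piglets were kept in pairs.

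The first comparison asked what 48 h without milk did at 4 weeks. Most members were lower in fasted than in fed suckling piglets. PEX11A, ABCD3, EHHADH, HSD17B4 and ACAA1 fell to between 0.227 and 0.471 of the fed level, and no fasted piglet reached the lowest fed piglet for any of these 5 genes. CROT fell by less. PEX19, DECR2 and CAT did not pass the test. In all, 6 of 9 members fell and 0 rose, with a median log2 fold change of −1.09. Over the 14062 genes, 29.4% fell and 33.9% rose, the median was 0.03, and 2.73% had fasted pigs all below the fed pigs. With library size alone as the scaling, 6960 genes rose and 2518 fell, against 4768 and 4141 with TMM, and the median gene lay at 0.25, so the members' values below shift by about that amount.

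PEX11A, a membrane protein that elongates peroxisomes before they divide, had the largest change of the members. Its level was 24.9 CPM in the lowest, 43.8 in the median and 76.4 in the highest fasted 4-week piglet, against 150 in the lowest, 195 in the median and 353 CPM in the highest fed 4-week piglet. The groups did not overlap, and the fed piglet at 353 CPM was pig 4, with the next at 231 CPM. The log2 fold change was −2.14 (SE 0.17, edgeR quasi-likelihood, adjusted p = 2.5e-17). PEX11A (ENSSSCG00000027052) lies on chromosome 7, 55256239 to 55264253 of Sscrofa11.1, and is protein-coding. RefSeq places it over parts of WDR93 and of a non-coding gene, and without a known strand setting some of its reads cannot be assigned with certainty.

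ABCD3, the 70-kDa membrane transporter that brings long-chain, branched and dicarboxylic acyl-CoAs into the peroxisome, showed the same split. Fasted 4-week piglets had 108 CPM at the lowest, 199 at the median and 328 at the highest, while fed 4-week piglets had 441, 795 and 1180 CPM. All 16 fasted piglets were below all fed ones. Its log2 fold change was −1.91 (SE 0.12, edgeR adjusted p = 1.9e-21). The gene (ENSSSCG00000028620) spans 122847925 to 122929454 on chromosome 4.

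The bifunctional enzymes carry out the middle steps, EHHADH on dicarboxylic and straight chains and HSD17B4 on very long and branched chains. EHHADH (ENSSSCG00000040296, chromosome 13, 123104085 to 123162119) was at 48.5, 198 and 275 CPM (lowest, median, highest) in fasted 4-week piglets, and at 288, 401 and 523 CPM in fed 4-week piglets. The groups did not overlap, though the highest fasted piglet came close to the lowest fed one. EHHADH fell by 1.09 on the log2 scale (SE 0.13, edgeR adjusted p = 1.3e-10). HSD17B4 (ENSSSCG00000028431, chromosome 2, 123313445 to 123401386) was at 61.3, 97.9 and 140 CPM in fasted 4-week piglets, against 160, 220 and 326 CPM in fed 4-week piglets. Again no piglet of either group entered the other's range, and the log2 fold change was −1.19 (SE 0.1, edgeR adjusted p = 1.5e-15).

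ACAA1, the thiolase that releases acetyl-CoA, had 26.7, 62 and 110 CPM in fasted 4-week piglets and 111, 146 and 207 CPM in fed 4-week piglets. The ranges met without overlapping. Its log2 fold change was also −1.19 (SE 0.12, edgeR adjusted p = 1.7e-13). In RefSeq the span of ACAA1 (ENSSSCG00000011250, chromosome 13, 22964844 to 23020138) overlaps DLEC1 and MYD88, which could split or discard reads.

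CROT, the carnitine octanoyltransferase that prepares medium chains for export, was at 27.8, 58.2 and 83.5 CPM in fasted 4-week piglets and at 48.9, 69 and 95.8 CPM in fed 4-week piglets. The groups overlapped, and 7 of 16 fasted piglets were below the lowest fed piglet. The fall of 0.26 on the log2 scale (SE 0.1, edgeR adjusted p = 0.025) was not called with library size alone (−0.08, adjusted p = 0.51) or when only the 4-week piglets were fitted (−0.26, adjusted p = 0.072).

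PEX19, the cytosolic chaperone that delivers membrane proteins to the peroxisome, was at 61.6, 82.7 and 104 CPM in fasted 4-week piglets and at 56.3, 92.4 and 118 CPM in fed 4-week piglets. Its log2 fold change was −0.12, with a 95% interval of −0.29 to 0.06 (edgeR adjusted p = 0.24). DECR2, the reductase that deals with double bonds at even positions, was at 20.3, 34.8 and 108 CPM in fasted 4-week piglets and at 26.9, 42.9 and 64.5 CPM in fed 4-week piglets. Pigs 10 and 16, at 108 and 80.2 CPM, lay above all fed piglets, and 4 fasted piglets lay below all of them. The log2 fold change was −0.1 (interval −0.42 to 0.22, edgeR adjusted p = 0.59).

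CAT, the catalase that breaks down hydrogen peroxide, spread most. Fasted 4-week piglets ran over 112, 359 and 1150 CPM (lowest, median, highest), against 268, 373 and 594 CPM in fed 4-week piglets. Among the fasted, 5 of 16 piglets lay above every fed piglet and 6 of 16 lay below every fed piglet. The mean was higher in fasted piglets (487 ± 358 CPM) than in fed piglets (395 ± 98.9 CPM, SD, n = 16 each), and the median was lower. The fitted log2 fold change was 0.3 (interval −0.22 to 0.83, edgeR adjusted p = 0.32), and in limma-voom it was −0.01 (adjusted p = 0.97).

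**Figure D1:**
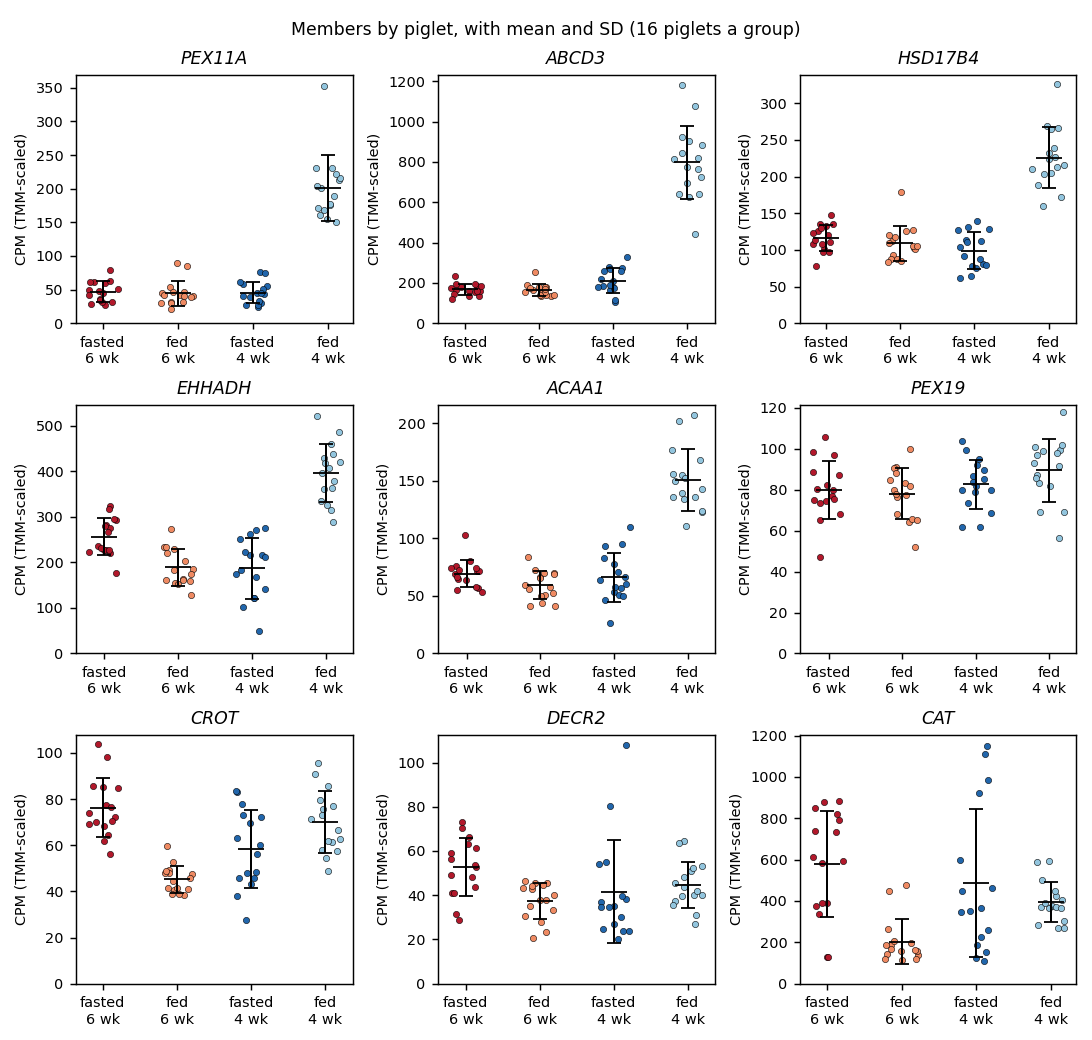
Level of each member in CPM (vertical axes, from 0) in the 4 groups; each point is 1 piglet, and the bars give the mean and SD of 16 piglets. Fed 4-week piglets lie above every piglet of the other 3 groups for PEX11A, ABCD3 and ACAA1, while CROT and CAT are higher in fasted than in fed 6-week piglets.

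Other cell types also differed between the 4-week groups. Summed over 10 of 10 smooth muscle markers, the level was 48.9 to 358 CPM in fasted and 235 to 882 CPM in fed 4-week piglets, with none at 0. Crypt and proliferation markers (9 of 10) summed to 295 to 3450 CPM in fasted and 40.3 to 791 CPM in fed 4-week piglets, with none at 0. Of 5 fat cell markers, LEP was at 0, ADIPOQ and PLIN4 had medians under 1 CPM in both groups and PLIN1 in the fasted one. Their sum, 63.4 to 180 CPM in fasted and 225 to 576 CPM in fed 4-week piglets, was therefore mainly that of CIDEC, a lipid droplet protein. Red blood cell markers (5 of 6) summed to 1.7 to 17.9 CPM in fasted and 11.9 to 55.6 CPM in fed 4-week piglets, with none at 0. Some immune markers were called higher in fasted 4-week piglets, 4 of 7 for macrophages, 3 of 7 for B cells and 2 of 5 for T cells. None of them was lower. Over all genes 33.9% were higher and 29.4% lower, so the B and T cell rises were near the background. Macrophage markers (7 of 7) summed to 309 to 1840 CPM in fasted and 385 to 1160 CPM in fed piglets. B cell markers (8 of 9) summed to 13.9 to 112 CPM in fasted and 11.8 to 92 CPM in fed piglets, and T cell markers (5 of 6) to 174 to 511 CPM in fasted and 113 to 313 CPM in fed piglets, with none at 0. In a fit that held marker levels of smooth muscle and B cells as covariates, the log2 fold changes were −2.3 for PEX11A, −2.08 for ABCD3, −1.28 for EHHADH, −1.16 for HSD17B4 and −1.5 for ACAA1. With the enterocyte marker level as the covariate they were −2.24, −2.03, −1.23, −1.26 and −1.32 for the same genes in that order. The enterocyte markers themselves moved in both directions, so their mean may not follow enterocyte content. PEX19 passed in the fit with smooth muscle and B cells (−0.31, edgeR adjusted p = 0.023). The part of crypt cells, macrophages, T cells, CIDEC-expressing cells and red blood cells in the falls was not tested.

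At 6 weeks the question was what the same fast did after weaning. No member fell, and the members that rose were CAT, CROT, DECR2 and EHHADH. CAT rose to 2.84 and CROT to 1.68 times the fed level. The count was 4 of 9 rises and 0 falls, against 22.7% rises and 18.4% falls over all genes, and the members' median log2 fold change was 0.22, against 0.01 for all genes. PEX11A, PEX19, ABCD3 and HSD17B4 had values within 0.1 of 0, and ACAA1 did not pass.

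For CAT (ENSSSCG00000013302, chromosome 2, 26493664 to 26533881), fasted 6-week piglets had 129, 602 and 882 CPM at the lowest, median and highest, against 116, 165 and 479 CPM in fed 6-week piglets. Of 16 fasted piglets 10 were above every fed piglet, but pigs 51 and 57, at 129 CPM each, were below the fed median. In the fed group, pigs 36 and 46 were high, at 479 and 447 CPM. The log2 fold change was 1.51 (SE 0.27, edgeR adjusted p = 9e-06). Markers of red blood cells, which carry much catalase, summed to 0.295 to 7.96 CPM in fasted and 1.49 to 14.1 CPM in fed 6-week piglets (5 of 6 markers, none at 0), with medians under 1 CPM for ALAS2, AHSP, SLC4A1 and HBM.

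CROT (ENSSSCG00000015391, chromosome 9, 93263606 to 93308150) was at 56.1, 73.2 and 104 CPM in fasted 6-week piglets, against 38.4, 45.1 and 59.7 CPM in fed 6-week piglets. All but 1 of the 16 fasted piglets exceeded the highest fed piglet. Its log2 fold change was 0.75 (SE 0.1, edgeR adjusted p = 7.2e-08).

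DECR2 (ENSSSCG00000007987, chromosome 3, 41291038 to 41304044) was at 28.7, 53.4 and 73.1 CPM in fasted 6-week piglets and at 20.7, 39 and 46.3 CPM in fed 6-week piglets. The groups overlapped, but 11 of 16 fasted piglets exceeded the highest fed one. It rose by 0.49 (SE 0.16, edgeR adjusted p = 0.012). EHHADH was at 177, 251 and 324 CPM in fasted 6-week and at 128, 179 and 273 CPM in fed 6-week piglets, with 15 of 16 fasted piglets above the fed median. Its rise was 0.44 (SE 0.13, edgeR adjusted p = 0.0049). Neither rise was called once marker levels of smooth muscle and B cells were covariates (DECR2 0.42, adjusted p = 0.052; EHHADH 0.32, adjusted p = 0.061). Smooth muscle markers (10 of 10, none at 0) summed to 67.8 to 304 CPM in fasted and 187 to 570 CPM in fed 6-week piglets. Goblet cell markers (5 of 7, none at 0) summed to 1020 to 4530 CPM in fasted and 2000 to 5020 CPM in fed 6-week piglets, and their part was not tested.

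The genes that had fallen most at 4 weeks showed little at 6 weeks. PEX11A was at 27.5, 47.2 and 79.7 CPM in fasted 6-week piglets and at 21, 41.6 and 89.1 CPM in fed 6-week piglets. The ranges covered each other almost fully, and the log2 fold change was 0.08 with an interval of −0.25 to 0.4 (edgeR adjusted p = 0.73). ABCD3 was at 122, 163 and 235 CPM in fasted 6-week and at 133, 160 and 255 CPM in fed 6-week piglets (0.03, interval −0.2 to 0.25, edgeR adjusted p = 0.87). For HSD17B4 the interval was −0.11 to 0.3, for ACAA1 −0.01 to 0.46 and for PEX19 −0.14 to 0.21. For PEX11A, ABCD3, HSD17B4 and ACAA1 these intervals lay wholly above those of the 4-week fold changes.

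**Figure D2:**
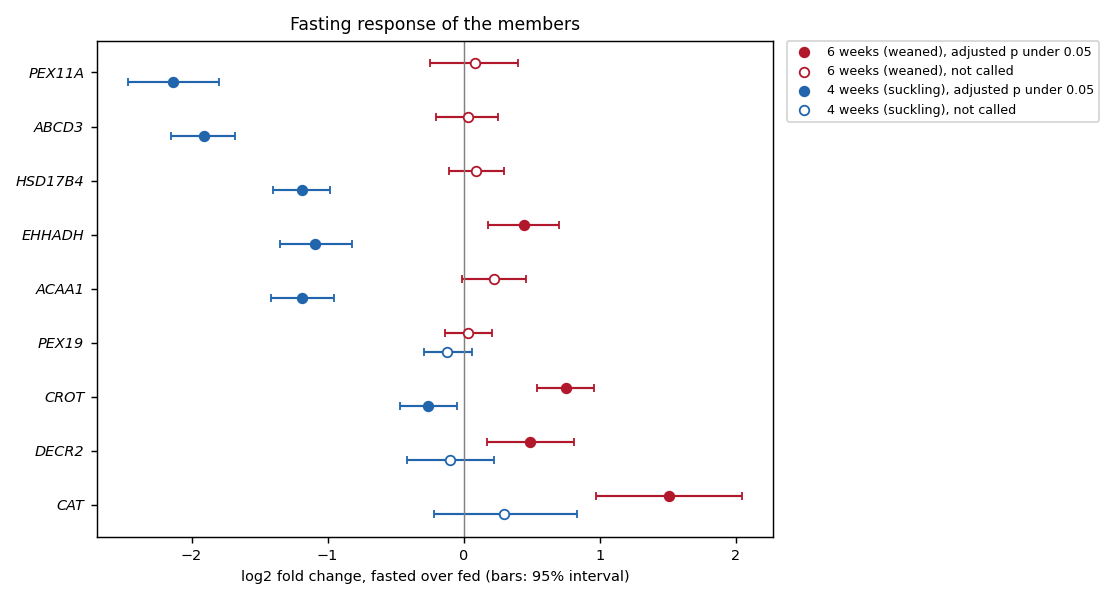
Log2 fold change of fasted over fed piglets (horizontal axis) with its 95% interval for the 9 members, at 6 weeks (red, upper of each pair) and at 4 weeks (blue, lower). Filled points were called at an adjusted p under 0.05; PEX11A lies at 0.08 at 6 weeks and at −2.14 at 4 weeks.

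The difference between the fasting responses was tested directly, as the log2 change at 6 weeks less that at 4 weeks. It was positive and called in 8 of 9 members, where 27.1% of all genes were called positive and 26.6% negative. With library size alone, 2213 genes were positive and 5515 negative, against 3817 and 3739 with TMM, and the median gene was at −0.22 in place of 0.02. PEX11A had the largest difference, 2.22 (SE 0.23, edgeR adjusted p = 3.2e-12), and ABCD3 the next, 1.94 (SE 0.16, adjusted p = 3.6e-15). In these, and in HSD17B4 and ACAA1, the fall at 4 weeks was called and the 6-week value was not. EHHADH (1.53, SE 0.18, edgeR adjusted p = 3.1e-10) and CROT (1.01, SE 0.15, adjusted p = 4.8e-08) fell at 4 weeks and rose at 6 weeks. CAT (1.2, SE 0.38, edgeR adjusted p = 0.0054) and DECR2 (0.59, SE 0.23, adjusted p = 0.024) were called at 6 weeks alone. The DECR2 difference was not called with library size alone (0.35, adjusted p = 0.19) or with smooth muscle and B cell covariates (0.53, adjusted p = 0.066). PEX19 had 0.15 (interval −0.1 to 0.39, edgeR adjusted p = 0.31).

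Fed 6-week against fed 4-week piglets compared the weaned with the suckling jejunum. These fed 4-week piglets are the same animals that served in the fasting comparison at 4 weeks, so the values are given side by side and not as a second support. Of 9 members 8 were lower in fed 6-week piglets and 0 higher, with a median log2 fold change of −1.05, while 32.3% of all genes were lower and 31.9% higher and the median gene was at −0.01. For PEX11A, ABCD3, EHHADH and ACAA1 the groups did not overlap; 5.1% of all genes lay so, lower at 6 weeks. Markers of other cells moved as well, with none at 0. Goblet cell markers (5 of 7) summed to 2000 to 5020 CPM in fed 6-week and 1090 to 1960 CPM in fed 4-week piglets, crypt and proliferation markers (9 of 10) to 852 to 5770 CPM at 6 weeks and 40.3 to 791 CPM at 4 weeks, and T cell markers (5 of 6) to 183 to 618 CPM at 6 weeks and 113 to 313 CPM at 4 weeks. Smooth muscle markers (10 of 10) summed to 187 to 570 CPM in fed 6-week and 235 to 882 CPM in fed 4-week piglets, and red blood cell markers (5 of 6) to 1.49 to 14.1 CPM at 6 weeks and 11.9 to 55.6 CPM at 4 weeks. With smooth muscle and B cell covariates, and with the enterocyte covariate, 8 members were again called lower; the part of the other cells was not tested. With library size alone, 6404 genes were higher and 2719 lower, against 4480 and 4548 with TMM, and the median gene was at 0.2.

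The log2 fold change of fed 6-week over fed 4-week piglets was −2.27 for ABCD3 (SE 0.12, edgeR adjusted p = 9e-25) and −2.17 for PEX11A (SE 0.17, adjusted p = 1.2e-17). ACAA1 was lower by 1.35 (SE 0.12), EHHADH by 1.07 (SE 0.13), HSD17B4 by 1.05 (SE 0.1), CAT by 0.96 (SE 0.27) and CROT by 0.63 (SE 0.1), with edgeR adjusted p values from 1.6e-15 for ACAA1 to 0.0014 for CAT. Of 16 fed 6-week piglets 14 had less CAT than any fed 4-week piglet, and pigs 36 and 46 did not. PEX19 (ENSSSCG00000023091, chromosome 4, 90196986 to 90213308) was at −0.2 (edgeR adjusted p = 0.04), but it was not called with DESeq2 size factors (adjusted p = 0.052), without the low count filter (0.07) or with only the fed groups fitted (0.072), and its direction turned with library size alone (0.01, adjusted p = 0.94). In these 4 alternatives 7 members were lower. DECR2 was at −0.25 (interval −0.58 to 0.07, edgeR adjusted p = 0.16).

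Between fasted 6-week and fasted 4-week piglets the members were closer. EHHADH was higher at 6 weeks by 0.46 (SE 0.13, edgeR adjusted p = 0.0033) and CROT by 0.38 (SE 0.1, adjusted p = 0.0022), and ABCD3 was lower by 0.33 (SE 0.11, adjusted p = 0.015). The other 6 members did not pass, with 19.7% of all genes higher and 23.2% lower. HSD17B4 (0.26, adjusted p = 0.034) and DECR2 (0.45, adjusted p = 0.017) were called higher in limma-voom. HSD17B4 was also called with library size alone (0.22, edgeR adjusted p = 0.044). Goblet (4 of 5) and T cell markers (4 of 5) were higher at 6 weeks. B cell (5 of 7), macrophage (3 of 7) and red blood cell markers (3 of 3) were lower. None of these 5 lists had calls the other way. The part of goblet cells, T cells, macrophages and red blood cells was not tested. PEX11A had a mean of 47.1 ± 15.1 CPM in fasted and 44.7 ± 18.5 CPM in fed 6-week piglets, and of 45.7 ± 16 CPM in fasted and 201 ± 48.5 CPM in fed 4-week piglets (SD, n = 16 each). Its log2 fold change between the fasted ages was 0.04 (interval −0.28 to 0.37).

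**Figure D3:**
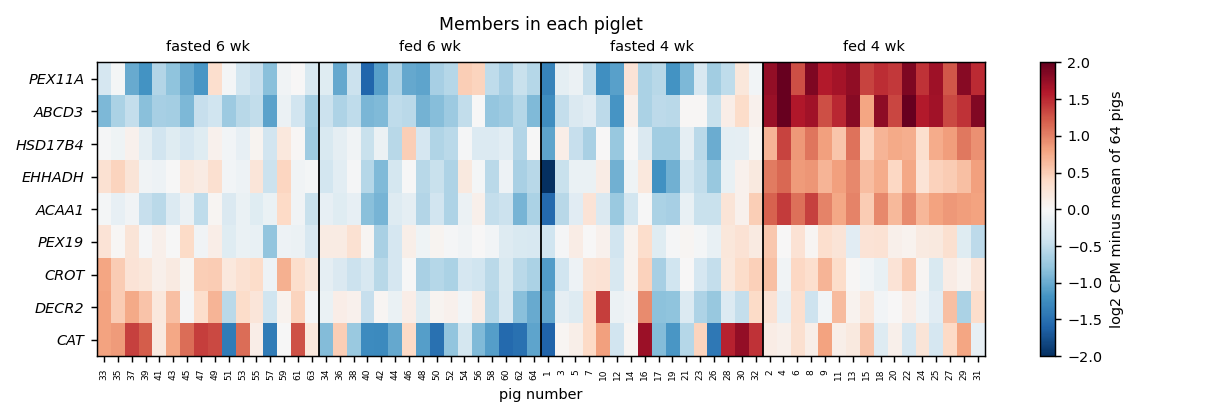
Members (rows) in each of 64 piglets (columns, pig number below), as log2 CPM less the gene's mean over all piglets, with colours held at −2 and 2; black lines part the 4 groups. The upper 5 genes are high across the fed 4-week piglets. CAT varies least among the fed 4-week piglets and is uneven within each of the other groups, fed or fasted. Pig 1 is the lowest of the fasted 4-week piglets in every row.

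Fasted 4-week piglets varied more than the other groups at the median over members. The coefficient of variation of the members ran from 14.7 to 73.5% there (median 32%), from 15.4 to 44.4% in fasted 6-week piglets (median 17.4%), from 12.9 to 53.3% in fed 6-week piglets (median 21.1%) and from 16.2 to 25.1% in fed 4-week piglets (median 19.3%). Pig 1 was the lowest fasted 4-week piglet for 9 of 9 members, and it also had the lowest enterocyte marker sum of its group, 8540 CPM, and the highest TMM factor, 1.383. In the fed 4-week group, pig 4 was the highest for 5 of 9 members. CAT was at 1110, 985, 1150 and 920 CPM in fasted pigs 16, 28, 30 and 32, whose enterocyte marker sums were 26600, 56200, 42400 and 44600 CPM. Without pigs 1, 28 and 32 the 4-week log2 fold change of CAT was 0.17, and the number of members called lower was again 6. That fit kept pigs 16 and 30, the highest in CAT, so it did not test the high CAT pigs as a set.

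A wider list of 54 peroxisome genes held 46 with an ID and 42 that passed the filter. At 4 weeks 24 of 42 fell and 6 rose in fasted piglets, with a median of −0.31, while 29.4% of all genes fell and 33.9% rose. At 6 weeks 3 fell and 8 rose, with a median of 0.11, while 18.4% of all genes fell and 22.7% rose, so the rises were near the background. The genes that fell at 4 weeks were 1 of 2 of the core cycle, 8 of 11 accessory acyl enzymes, 2 of 2 alpha oxidation enzymes, 4 of 6 other oxidases and redox enzymes, 5 of 11 peroxins, 2 of 4 fission and protease genes, 1 of 4 ether lipid genes and 1 of 2 membrane channel genes. The rises were 2 peroxins, 1 fission or protease gene and 3 ether lipid genes. The 2 core genes, ACOX2 and ACOX3, had log2 fold changes of 0.01 (edgeR adjusted p = 0.97) and −0.2 (adjusted p = 0.043) at 4 weeks. Both were called higher in fasted 6-week piglets, by 0.54 (edgeR adjusted p = 0.00091) and 0.24 (adjusted p = 0.025). Differences between these roles were not tested.

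PECR, which reduces the trans double bond of 2-enoyl-CoAs, was at 12.8, 32.9 and 72 CPM in fasted 4-week piglets and at 116, 150 and 243 CPM in fed 4-week piglets. The groups did not overlap, and it fell by 2.2 (SE 0.14, edgeR adjusted p = 4e-21). At 6 weeks it fell by 0.38 (SE 0.13, edgeR adjusted p = 0.018), so that fasted piglets averaged 22.6 ± 5.39 CPM and fed piglets 29.4 ± 6.4 CPM. PHYH, the hydroxylase that opens alpha oxidation of phytanic acid, fell by 1.74 at 4 weeks (SE 0.28, edgeR adjusted p = 3.1e-07) and was at 0.34 at 6 weeks (adjusted p = 0.33).

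Ether lipid synthesis is another task of the peroxisome. Of 4 genes tested for it at 4 weeks, AGPS, FAR1 and FAR2 rose and GNPAT fell; they are named here after their values were seen. FAR1, which makes the fatty alcohols, was at 12.6, 22.6 and 32.8 CPM in fasted 4-week piglets and at 9.87, 15.1 and 18.6 CPM in fed 4-week piglets. Its log2 fold change was 0.62. AGPS, which forms the ether bond, rose by 0.48, FAR2 by 0.57, and GNPAT, which supplies the acylated starter, fell by 0.51. The direction of these 4 was the same under the DESeq2 and library size scalings. At 6 weeks AGPS fell by 0.25 (edgeR adjusted p = 0.043; 0.09 with library size alone) and the other 3 did not pass.

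**Figure D4:**
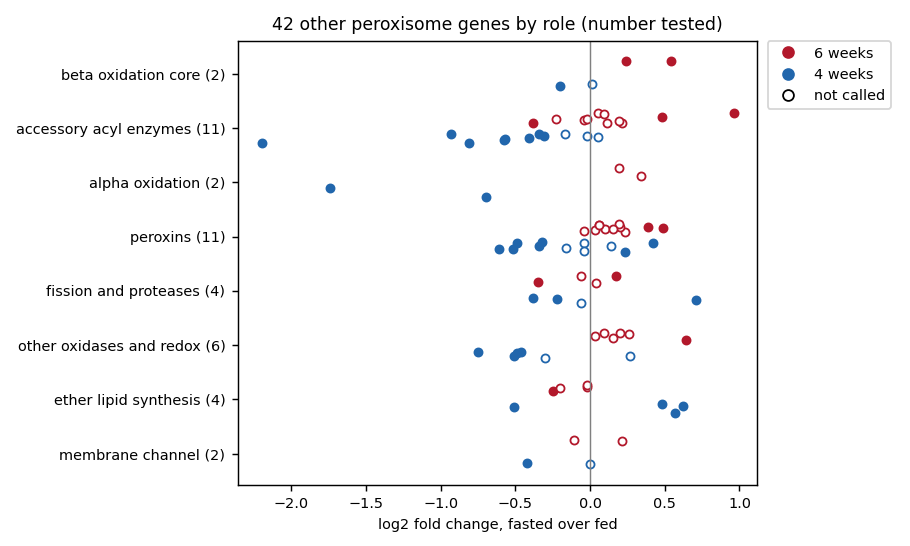
Log2 fold change of fasted over fed piglets (horizontal axis) for 42 other peroxisome genes by role, each point a gene, at 6 weeks (red) and 4 weeks (blue), open where not called. Blue points reach −2.2 among accessory acyl enzymes, and 3 of 4 ether lipid genes lie to the right of 0.

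Of 6 receptors and coactivators linked to these genes, 1 rose and 3 fell in fasted 4-week piglets, and 2 rose and 3 fell in fasted 6-week piglets. Over all genes 33.9% rose and 29.4% fell at 4 weeks, and 22.7% rose and 18.4% fell at 6 weeks. With 6 genes these counts are too small to set the list apart from those shares. Named after their values were seen, PPARD fell at both ages, by 0.43 at 6 weeks and 0.8 at 4 weeks, and RXRA rose by 0.38 at 6 weeks and fell by 0.52 at 4 weeks. PPARG fell by 0.9 and HNF4A rose by 0.29 at 6 weeks, and neither passed at 4 weeks. PPARA, the fatty acid receptor named above, was at 13, 31.1 and 60.2 CPM in fasted 4-week piglets and at 29.8, 46.2 and 83.5 CPM in fed 4-week piglets. It fell by 0.7 at 4 weeks (SE 0.16, edgeR adjusted p = 0.00012), with 15 of 16 fasted piglets below the fed median. At 6 weeks it was at 19.9, 27.4 and 55.6 CPM in fasted and 18, 25.2 and 31.7 CPM in fed piglets, a log2 fold change of 0.29 (interval −0.02 to 0.61, edgeR adjusted p = 0.13). PPARGC1A, a coactivator of oxidative metabolism, fell at 6 weeks and rose at 4 weeks. Its mean was 13.1 ± 4.04 CPM in fasted and 27.9 ± 5.78 CPM in fed 6-week piglets, a fall of 1.09 (SE 0.16, edgeR adjusted p = 2.8e-07), and 14.7 ± 4.38 CPM in fasted and 10.6 ± 4.36 CPM in fed 4-week piglets, a rise of 0.47 (SE 0.16, adjusted p = 0.01).

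Beside the peroxisomal genes, 15 mitochondrial fatty acid oxidation genes were tested. In fasted 4-week piglets 11 of 15 fell and 0 rose, beside 29.4% and 33.9% of all genes, and the median was −0.51, against −1.09 for the 9 members. In fasted 6-week piglets 6 of 15 rose and 2 fell, beside 22.7% and 18.4% of all genes, and the median was 0.15, against 0.22 for the members. The difference between the lists was not tested.

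The genes whose levels ran closest to a member were found by the root mean square gap in log2 CPM over 64 pigs, each gene centred on its own mean. For PEX11A the nearest of all tested genes with a symbol was another member, ABCD3, at 0.38, followed by TMEM135 at 0.42; the median gene lay 1.12 away. TMEM135 had means of 39.2 CPM in fasted and 33.2 CPM in fed 6-week piglets, and of 46.5 CPM in fasted and 152 CPM in fed 4-week piglets. The nearest to HSD17B4 were CMPK1 and TMEM87B, both at 0.23, and to EHHADH they were TRPM4 at 0.23 and SFT2D2 at 0.26.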

How the data were processed

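The deposited files hold raw read counts per gene, 1 file per pig, made by the authors; the submitters' processing notes name STAR, HTSeq and the build Sscrofa11.1. Versions, annotation release, strand setting and filters are not given in the sources used here. The 5 HTSeq classes were left out. Of all reads 4.841 to 8.889% lay outside genes, 5.5 to 7.64% were ambiguous and 2.729 to 4.068% were not uniquely aligned. No libraries of a group agreed within sampling noise (chi-square per degree of freedom of at least 24.95, over genes with 10 reads).

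Symbols were paired with 15029 of 31908 IDs. Gene positions are RefSeq's on Sscrofa11.1, matched by symbol. Genes kept by filterByExpr (14062) were scaled by TMM and fitted in 1 edgeR 4.0.16 model (R 4.3.3) with a mean for each of the 4 groups over 64 pigs and robust quasi-likelihood F tests. Adjusted p values are Benjamini-Hochberg over 14062 genes, called under 0.05. SE is the log2 fold change over the root of F. The method was checked on simulated counts. Alternatives used limma 3.58.1 and DESeq2 1.42.0.

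All members are named. Of the other peroxisome genes and regulators, PPARA and those called with a log2 change of at least 1 under fasting are named; 2 other pathway genes are not reported here and were left out of the lists; the ether lipid genes, ACOX2, ACOX3 and the other regulators were picked after their values were seen. For PEX11A, HSD17B4 and EHHADH the 2 nearest genes are named. Members and lists were chosen with earlier results of these data known. The extraction protocol in the labels speaks of muscle tissue; enterocyte markers were high in all groups.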

Additional observations from a re-analysis of the deposited data

Results flagged for a closer look

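The response to fasting differed between 6-week and 4-week piglets in 12 of the genes named by rule, by the test of the difference itself (log2 change at 6 weeks less that at 4 weeks, edgeR quasi-likelihood, Benjamini-Hochberg adjusted, 16 pigs a group). Among the members the differences were 2.22 for PEX11A, 1.94 for ABCD3, 1.53 for EHHADH, 1.41 for ACAA1 (adjusted p = 1.1e-10), 1.29 for HSD17B4 (adjusted p = 4.1e-11), 1.2 for CAT, 1.01 for CROT and 0.59 for DECR2. Those of the other peroxisome genes were 2.07 for PHYH (adjusted p = 1e-05) and 1.81 for PECR (adjusted p = 3.7e-12). For the regulators they were 0.99 for PPARA (adjusted p = 0.00016) and −1.56 for PPARGC1A (adjusted p = 6.3e-08). The remaining member, PEX19, was not called (0.15, edgeR adjusted p = 0.31). PECR, PHYH and PPARGC1A were named for a large change in 1 of the fasting comparisons that form this difference. A called difference in these genes is therefore not separate support. Of the genes named after their values were seen, the difference was called positive for GSTK1 (1.15), PEX5 (0.98), PRDX5 (0.9), RXRA (0.9), GNPAT (0.49), HNF4A (0.44), ACOX2 (0.54), ACOX3 (0.45) and PPARD (0.37), and negative for PPARG (−1.04), FAR1 (−0.82), AGPS (−0.73) and FAR2 (−0.59). Over all genes 27.1% were called positive and 26.6% negative. Age, weaning, diet, housing and separation from the sow differ between the 2 settings and cannot be told apart.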

How the results depend on the processing

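Of 396 values of members under 9 alternatives, 382 kept both direction and call, or were called in neither fit. With the direction kept, 9 were no longer called and 4 became called, and 1 reversed. The fall of PEX11A at 4 weeks ranged from −2.3 to −1.94 and that of ABCD3 from −2.08 to −1.72. Members called lower at 4 weeks numbered 6 and ranged from 5 to 7. With smooth muscle and B cell marker covariates 2 members rose at 6 weeks, against 4. In limma-voom 4 members were higher in fasted 6-week than in fasted 4-week piglets, against 2 in edgeR. With library size alone, 2518 genes fell at 4 weeks (against 4141), 2213 had a positive difference of responses (against 3817), 2719 were lower in fed 6-week than in fed 4-week piglets (against 4548), and PEX19 reversed in that last comparison (0.01, against −0.2). That scaling moves the median gene. The causes of the other changes were not tested. No paired analysis was run, since the groups share no pig number and no label ties a fasted to a fed pig. Each pair of consecutive numbers holds 1 fasted and 1 fed pig, but nothing in the labels says that they belong together. A block by consecutive numbers was not tried.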

Other observations

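Of 11 peroxins tested besides the members, 2 rose and 0 fell in fasted 6-week piglets (edgeR), near the 22.7% of all genes that rose. PEX5, the import receptor for most matrix enzymes, averaged 35.9 ± 4.69 CPM in fasted and 25.6 ± 3.71 CPM in fed 6-week piglets (SD, n = 16 each), a log2 fold change of 0.49. PEX26, the membrane anchor of the receptor-recycling complex, was called higher in fasted piglets at both ages, by 0.39 at 6 weeks and by 0.42 at 4 weeks. PEX5 was lower in fasted 4-week piglets, by 0.49. These genes were chosen after their values were seen.

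Of 6 other oxidases and redox enzymes tested, 4 fell and 0 rose in fasted 4-week piglets, while 29.4% of all genes fell. Among them PRDX5, a peroxiredoxin found in peroxisomes and mitochondria, fell by 0.75 on the log2 scale, and the peroxisomal glutathione transferase GSTK1 fell by 0.51. At 6 weeks GSTK1 rose by 0.64 in fasted piglets, while PRDX5 was at 0.15 and was not called. PRDX5 and GSTK1 were also picked with their values known.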
